A study of Mus musculus with 8 samples.

Results

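The genes described here are 28 markers of the neural lineage and of the ectoderm, listed by symbol. No threshold on their values defined the list, but it was drawn up with earlier results of these data known. All 28 were found among the 54232 genes of both count tables. RNA-seq counts came from 8 libraries of E14, a line of mouse embryonic stem cells with the strain label 12910la, grown in 15% serum with the cytokine LIF. Each of 4 groups had 2 libraries. In the Ssrp1 experiment, cells with the genotype control were compared with Ssrp1_KO cells, in which Cas9 and a guide RNA had been used against Ssrp1, a subunit of the histone chaperone FACT. In the Usp7 experiment, cells with the genotype control were compared with Usp7_KD cells, in which an shRNA against the deubiquitinase gene Usp7 was expressed from a pSuper puro plasmid. Cells took up 1000 ng of plasmid, and puromycin at 1 ug/ml was added after 24 h and kept for 3 days. The labels list this plasmid dose and selection for the Usp7 controls as well, and for no library of the Ssrp1 experiment. They do not say whether the knockout libraries came from 1 clone, nor what the plasmid of the Usp7 controls carried. The labels do not call the replicates separate cultures, so a p-value here reflects the spread between these libraries alone, and that spread may be technical.

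Embryonic stem cells can give rise to ectoderm, which forms the neural plate and the surface ectoderm. In the neural plate, transcription factors such as Sox1 and Pax6 mark progenitor cells, proneural factors such as Neurog2 and Neurod1 drive progenitors towards neurons, and cytoskeletal and RNA-binding proteins such as Tubb3, Dcx and Elavl3 appear in young neurons. Surface ectoderm is marked by Trp63 and the keratins Krt5 and Krt14. In stem cells kept in serum with LIF most of these genes are held at a low level, and several of their promoters are known targets of polycomb repression.

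Library totals ranged from 15879056 to 18361130 counts. Levels are given as CPM, counts relative to library size after scaling by TMM factors over the 8 libraries, and a group mean with the SD of its 2 libraries. The Usp7 transcript had 375 and 353 CPM in its controls against 110 and 119 CPM after knockdown (log2 change -1.64, SE 0.19, edgeR adjusted p = 0.0012). The Ssrp1 transcript had 469 and 488 CPM in its controls, but 416 CPM in the library labelled knockout replicate 1 and 122 CPM in replicate 2 (log2 change -0.77, SE 0.45, edgeR adjusted p = 0.411). Directions below therefore refer to the libraries labelled knockout. The 10 stem cell markers, Pou5f1 and Nanog among them, summed to 11800 and 9120 CPM in the Ssrp1 controls against 8680 and 8200 CPM under the knockout label, and to 7490 and 6060 against 5430 and 4980 CPM in the Usp7 experiment, with none at 0 in any group. Both perturbed groups thus lay below their controls in this sum. Mitochondrial genes took 0.732% and 0.776% of counts in the Ssrp1 controls against 7.31% and 2.81% under the knockout label, and 2.23% and 1.67% against 2.44% and 2.03% in the Usp7 experiment. The 10 fibroblast markers summed to 489 and 750 against 469 and 625 CPM in the Ssrp1 experiment, and to 883 and 1470 against 1210 and 1110 CPM in the Usp7 experiment, with up to 3 of them at 0 in a group. The 9 trophoblast markers found summed to 54.1 and 61.4 against 74.6 and 93.3 CPM, and to 35.5 and 42.9 against 64.8 and 58.1 CPM. Most of this sum came from Tfap2c in every library. This gene alone had 46.6 and 49.2 against 50.8 and 53.7 CPM, and 26.9 and 33.0 against 53.3 and 44.9 CPM. The 10 primitive endoderm markers summed to 56.2 and 62.5 CPM in the Ssrp1 controls against 104 and 121 CPM in the knockout-labelled libraries, and to 71.5 and 82.4 against 74.4 and 84.6 CPM in the Usp7 experiment. The 10 mesoderm markers summed to 6.04 and 9.62 against 17.7 and 17.0 CPM, and to 14.2 and 14.4 against 19.3 and 22.4 CPM. The part of these other cell types, of the stem cell markers and of the mitochondrial share in the results below was not tested. In bulk RNA, fewer cells of a type and less RNA per cell cannot be told apart.

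Many of the 28 genes were too low to judge. The edgeR filter on low counts asked for 0.598 CPM in at least 2 libraries in the Ssrp1 experiment and 0.566 CPM in the Usp7 experiment, on unscaled totals. It kept 13 members in the Ssrp1 experiment and 14 in the Usp7 experiment, 12 of them in both, and 13 members in neither. In the Ssrp1 experiment 11 of the 13 passed through the controls alone, and Irx3 and Lhx2 passed through 1 library of each group. In the Usp7 experiment 11 of the 14 passed through the controls alone, Irx3 through 1 control and both knockdown libraries, and Nkx2-2 and Zic1 through the knockdown libraries only, so that the last 2 could enter the test only by being higher there. The joint fit of the 8 libraries kept 16, with Neurog1 added.

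Among the 13 members below the filter, Dcx, a microtubule protein of migrating neurons, had 1 count in all 8 libraries together. Dlx5 had counts in 1 library (3) and so had Pax3, a factor of the dorsal neural tube and neural crest (4). The Notch target Hes5, the radial glia gene Fabp7 and the basal epidermal regulator Trp63 reached at most 2 counts in a library, and the proneural gene Neurog2 at most 3. The oligodendrocyte factor Olig2 reached 7, the forebrain factor Dlx1 6, Krt5 9, Pax7 11, Dlx2 15 and the proneural gene Neurog1 24. A count of 0 allows up to 3 counts, which is 0.153 to 0.218 CPM in these libraries. Summed over the 13, the Ssrp1 controls had 20 and 30 counts against 30 and 41 for knockout, and the Usp7 controls 16 and 22 against 32 and 58 for knockdown. Both knockdown libraries thus lay above both of their controls in this sum, and in the Ssrp1 experiment knockout replicate 1 equalled control replicate 2. These sums are raw counts, not scaled for library size. Over all genes, 22230 and 23381 had a count in the Usp7 controls against 23577 and 24040 after knockdown. In the Ssrp1 experiment 22600 and 23702 did against 23938 and 24995, so both perturbed groups had more genes detected than their controls.

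For members with 1 to 3 counts in a group the ratio of pooled counts is given with a 95% interval from the exact binomial, for counting error alone. Members entered by having at most 3 counts in 1 group and more in the other. This choice biases the ratios and their intervals away from 1. In the Usp7 experiment Neurog1 had 1 and 1 counts in controls against 2 and 11 after knockdown, a ratio of 6 (interval 1.36 to 54.8). Dlx1 had 2 and 0 against 6 and 5 counts (ratio 5.08, interval 1.11 to 47.1), although its antisense gene Dlx1as, which shares 335 exon bases with it, had 3 and 26 against 21 and 16. Olig2 had 0 and 1 against 6 and 2 counts (ratio 7.38, interval 0.99 to 328). Krt5 had 3 and 0 against 1 and 4 counts (ratio 1.54, interval 0.299 to 9.9). Neurog2, at 0 in both controls and 3 counts in each knockdown library, had a ratio of 1.85 against a floor of 3 counts over the control group. Pax3, at 0 in both controls and 0 and 4 counts after knockdown, had 1.23 against the same floor. These 2 ratios leave out the counting error of the knockdown counts, so they are not lower limits. In the Ssrp1 experiment Krt5 had 2 and 0 against 3 and 9 counts (ratio 5.61, interval 1.25 to 51.7). Dlx1 went the other way, with 5 and 3 control counts against 0 and 3, a ratio of 2.85 in favour of the controls whose interval included 1 (0.684 to 16.7). Neurog1, with 8 and 8 control counts, had 24 and 5 under the knockout label, so these libraries fell on both sides of the controls.

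**Figure D1:**
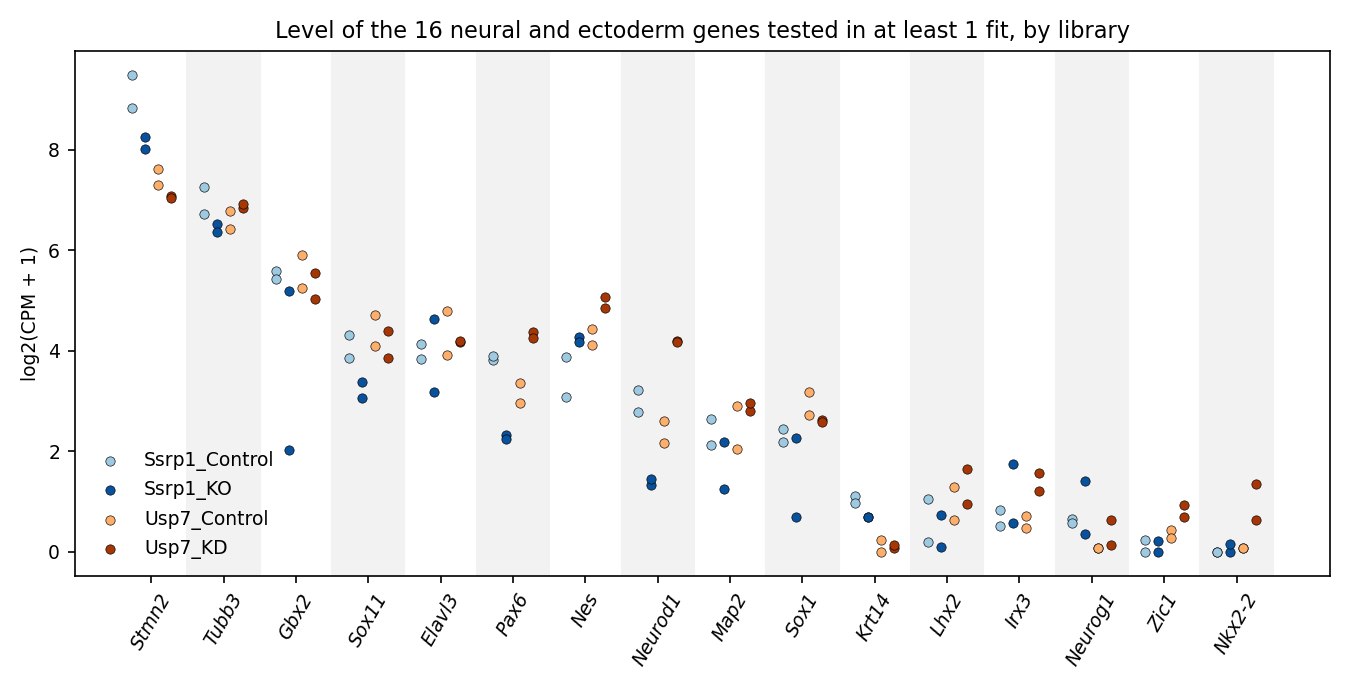
Level of the 16 members tested in at least 1 fit, as log2(CPM + 1) on the vertical axis, in each of the 8 libraries (points, coloured by group, 2 per group). Stmn2, Tubb3 and Gbx2 stand above the other members in most libraries, while Gbx2 in knockout replicate 2 drops to 3.08 CPM and the members from Krt14 rightwards stay at or under 2.35 CPM.

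Levels of different genes were compared per length, as TPM (counts divided by exon length, scaled to the same total in each library). In the Ssrp1 controls the stathmin gene Stmn2, a regulator of microtubules in neurons, had 228 ± 28.9 TPM and the neuronal tubulin gene Tubb3 151 ± 9.67 TPM, which placed them above 97.7% and 96.5% of all genes with a count. The homeobox gene Gbx2, which patterns the hindbrain boundary and is also expressed in stem cells, followed with 45.8 ± 5.37 TPM. Neurod1 (6 ± 2.6 TPM), Elavl3 (4.93 ± 1.72), Sox11 (4.51 ± 1.93), the intermediate filament gene Nes (3.85 ± 2.26), Pax6 (2.6 ± 0.604) and Sox1 (1.89 ± 0.66) lay lower (TPM, SD, n = 2), and the ranges of mean ± SD overlapped between neighbours among these 6. In the Usp7 controls Tubb3 had 154 ± 0.507 TPM, Stmn2 93.3 ± 2.08 and Gbx2 64.6 ± 9.79 (SD, n = 2). Among the members, the 2 with the highest levels in these stem cells were therefore neuronal cytoskeleton genes rather than progenitor factors.

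After Usp7 knockdown Neurod1 and Pax6 rose and no member fell, among the 12 tested members that had not passed the filter through the knockdown libraries alone. Nkx2-2 was also called higher, but it and Zic1 could enter only by being high in the knockdown, so the full count of 3 of 14 is biased upwards. The summed stem cell, mesoderm and trophoblast markers given above also differed between these groups without overlap. Of all 15915 genes tested, edgeR called 2.99% at the threshold of 0.05 on the adjusted p, 2.36% higher and 0.628% lower. At an unadjusted p under 0.05 there were 6 of the 14, against 16.7% of all genes. These were Pax6, Neurod1, Nes, Irx3, Nkx2-2 and Zic1, and the last 2 bias this count upwards in the same way. The median log2 change of the 12 was 0.36, with 7 above 0, against -0.02 over all genes. With Nkx2-2 and Zic1 it was 0.55, with 9 of 14 above 0. DESeq2 and limma-voom each called 2 members higher, Neurod1 and Pax6, and none lower, with 3.07% and 2.22% of all genes higher. Both knockdown libraries lay above both controls for 5 of the 12 (7 of the 14) and below for 2, where 23.6% and 23.9% of all genes did so.

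Neurod1 encodes a basic helix-loop-helix factor that drives neuronal differentiation and also acts in endocrine cells (chromosome 2, 79452521 to 79456751, mm10). Controls had 3.50 and 5.07 CPM, and knockdown libraries 17.5 and 17.05 CPM. Both knockdown libraries stood far above both controls and close to each other. The log2 change was 2.03 (SE 0.28, edgeR adjusted p = 0.0034), a 4.07-fold rise. Its exons share 201 bases with those of Cerkl on the same strand. Cerkl had 6 and 10 control counts and 12 and 9 knockdown counts, against 61 to 335 for Neurod1.

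Pax6 encodes a paired-box factor of neural, eye and pancreatic progenitors (chromosome 2, 105668900 to 105697364). It stood at 9.29 and 6.81 CPM in controls against 19.9 and 18.1 CPM after knockdown, again without overlap. The rise was 2.40-fold (log2 change 1.27, SE 0.24, edgeR adjusted p = 0.0201). Nkx2-2, a homeobox factor of the ventral neural tube and pancreas (chromosome 2, 147177546 to 147194243), had 1 and 1 control counts against 30 and 11 after knockdown. Its ratio of pooled counts was 18.9 (interval 4.91 to 161), and its edgeR log2 change of 4.11 (SE 0.91) had an adjusted p of 0.0378. The antisense gene Nkx2-2os had 0 counts in every library. DESeq2 gave Nkx2-2 an adjusted p of 0.055 and limma-voom 0.053. Left without knockdown replicate 2, the calls of all 3 ended, with log2 changes of 2.03 (Neurod1, edgeR adjusted p = 0.094), 1.32 (Pax6, 0.34) and 4.66 (Nkx2-2, 0.14). Pax6 also lost its call without knockdown replicate 1 (0.092). Without the low-count filter and in the joint fit of 8 libraries, Neurod1 was still called (0.038 and 0.037), while Pax6 (0.11 and 0.12) and Nkx2-2 (0.16 and 0.19) were not. Nkx2-2 lost it without control replicate 1 (0.11) and did not pass the filter without knockdown replicate 1.

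These 3 genes lie on chromosome 2, as do Lhx2, Dlx1 and Dlx2. Over the 1270 tested genes of that chromosome the median log2 change was 0.00, and 2.91% were called higher. To show the sequence upstream of an annotated start of the genes that rose, the stretch before the RefSeq start is printed with the same for Krt14, a surface ectoderm keratin that was too low to test here (GRCm38.p6, up to 250 bases, cut where an annotated exon begins, 5′ to 3′, capitals mark CG dinucleotides). The stretches are chr2:79456752-79456886 on the minus strand for Neurod1, chr2:105668646-105668895 on the plus strand for Pax6, chr2:147186456-147186652 on the minus strand for Nkx2-2 and chr11:100206031-100206280 on the minus strand for Krt14. The stretches of Neurod1 and Pax6 lie before the gene as GENCODE annotates it. Those of Nkx2-2 and of Krt14 (GENCODE gene 100203162 to 100207548) lie inside the longer GENCODE gene, outside its exons, so in that annotation they are intron sequence. The exon bases cut off before the RefSeq start numbered 115 for Neurod1 and 53 for Nkx2-2.
Neurod1: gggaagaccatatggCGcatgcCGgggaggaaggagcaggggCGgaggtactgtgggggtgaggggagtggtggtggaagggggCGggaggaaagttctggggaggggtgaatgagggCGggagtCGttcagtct
Pax6: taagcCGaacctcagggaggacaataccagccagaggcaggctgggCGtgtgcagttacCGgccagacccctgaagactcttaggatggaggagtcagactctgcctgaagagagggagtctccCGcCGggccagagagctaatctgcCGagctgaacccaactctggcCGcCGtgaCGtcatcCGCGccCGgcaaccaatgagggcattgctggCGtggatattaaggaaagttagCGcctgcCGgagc
Nkx2-2: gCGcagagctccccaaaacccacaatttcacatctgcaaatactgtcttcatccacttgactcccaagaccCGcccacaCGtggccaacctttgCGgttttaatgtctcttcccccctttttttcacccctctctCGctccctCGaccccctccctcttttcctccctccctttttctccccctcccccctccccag
Krt14: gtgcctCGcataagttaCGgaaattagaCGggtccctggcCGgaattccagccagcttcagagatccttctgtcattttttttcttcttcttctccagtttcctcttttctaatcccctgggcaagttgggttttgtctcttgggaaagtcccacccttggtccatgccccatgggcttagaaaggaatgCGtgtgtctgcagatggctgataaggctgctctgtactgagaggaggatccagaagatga
The Neurod1 stretch held 6 CG dinucleotides in 135 bases, that of Pax6 15 in 250, that of Nkx2-2 6 in 197 and that of Krt14 5 in 250. RefSeq starts were at hand for 24 of the 28 members, with 27 upstream windows of 250 bases, whose median was 18 CG dinucleotides against 6 over all 32851 such RefSeq windows. Some member windows lay in GENCODE exons of their own gene, wholly for Irx3, Pax7, Dlx1 and window 2 of Pax6 and of Lhx2. The median and the motif counts of the members therefore include exon sequence. How far this holds for all RefSeq windows was not tested. The motif GGGCGG, searched on both strands, was found in 16 of the 27 windows and in 32.7% of all windows. It occurred 3 times in the printed Neurod1 stretch, 1 time in that of Nkx2-2 and not in that of Pax6. CAGATG, a form of the E-box that proneural factors bind, was found in 3 of the 27 windows and in 14.4% of all. Among them were Nkx2-2 and Krt14. CAGCTG was found in 4 of the 27 and in 13% of all, and CCAAT in 12 of the 27 and 33.8% of all, including Pax6. A match is a run of letters in this window and no evidence of binding.

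**Figure D2:**
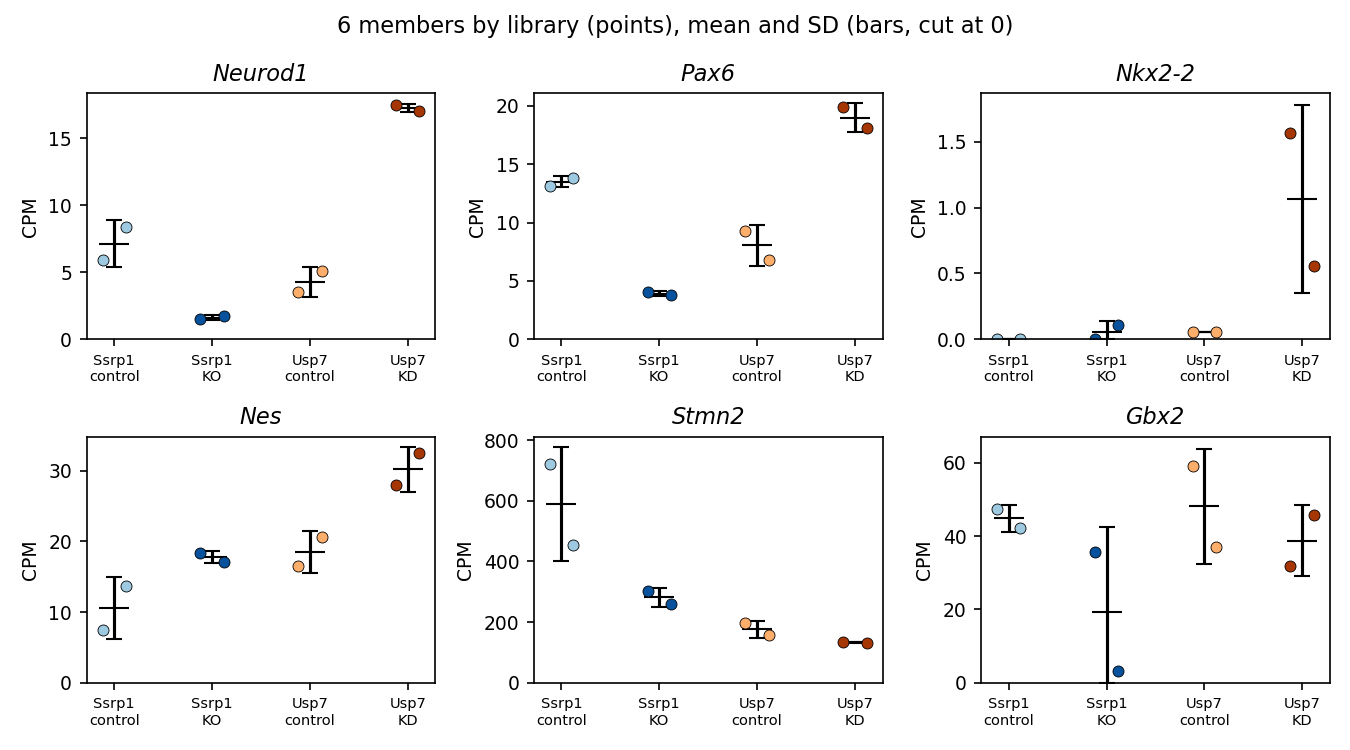
CPM of 6 members on a linear axis from 0, in each library (points), with the mean and SD of each group of 2 (bars, cut at 0). Neurod1 and Pax6 are lower in the Ssrp1 knockout-labelled libraries and higher in the Usp7 knockdown than in their own controls, Nkx2-2 exceeds 0.5 CPM in the knockdown only, and Gbx2 differs between the knockout libraries (35.8 and 3.08 CPM).

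The other members of the Usp7 experiment did not pass the test. Nes, the filament gene of neural progenitors, had 16.5 and 20.6 CPM in controls against 27.97 and 32.46 CPM after knockdown (log2 change 0.72, SE 0.22, edgeR adjusted p = 0.123). Its libraries did not overlap. Irx3, a factor of the neural tube and other tissues, had 0.63 and 0.38 CPM against 1.99 and 1.32 CPM (log2 change 1.73, SE 0.54, adjusted p = 0.13). Zic1, a dorsal neural factor, had 6 and 4 against 12 and 18 counts (log2 change 1.47, adjusted p = 0.281). Tubb3 had 109 and 85.0 CPM against 115 and 121 CPM (log2 change 0.31, SE 0.19, adjusted p = 0.456). Stmn2 had 196 and 156 CPM against 135 and 131 CPM (log2 change -0.37, SE 0.19, adjusted p = 0.345), so that its knockdown libraries both lay below the controls, as did those of Sox1 (8.03 and 5.61 against 5.18 and 4.99 CPM, log2 change -0.39, SE 0.30, adjusted p = 0.557). For 5 members the groups overlapped. Sox11 had 16.1 and 25.3 against 13.5 and 20.1 CPM (log2 change -0.28, SE 0.29, adjusted p = 0.678). Gbx2 had 59.2 and 36.9 against 31.8 and 45.6 CPM (-0.28, SE 0.25, adjusted p = 0.633). Its exons share 946 bases with the antisense gene D130058E05Rik, which had 73 and 54 against 65 and 45 counts, and the strand setting of the counting is not known. The neuronal members Elavl3 and Map2 showed no common direction. Elavl3 had 14.2 and 26.8 against 17.0 and 17.4 CPM (-0.24, SE 0.29, adjusted p = 0.737). Map2 had 3.15 and 6.48 against 5.96 and 6.77 CPM (0.41, SE 0.37, adjusted p = 0.629). Lhx2, a forebrain and eye factor, had 25 and 10 against 18 and 42 counts (0.68, SE 0.59).

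In the Ssrp1 knockout-labelled libraries, 0 of the 13 tested members passed the edgeR test, where 3.71% of all 15757 genes did, 3.39% higher and 0.324% lower. The mitochondrial share and the summed stem cell, primitive endoderm, mesoderm and trophoblast markers given above also differed between these groups without overlap. The members' median log2 change was -0.74 against 0.03 over all genes, and 10 of the 13 were below 0. At an unadjusted p under 0.05 there were 3, Pax6, Neurod1 and Stmn2, all lower, against 18.2% of all genes in either direction. DESeq2 called these same 3 lower, against 1.37% of all genes, and limma-voom called 0, where it called 2.55% of all genes. Both libraries labelled knockout lay below both controls for 7 members and above for 1, where 26.7% and 24.5% of all genes did so.

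Pax6 had 13.2 and 13.8 CPM in controls against 4.04 and 3.75 CPM in knockout-labelled libraries. The groups were far apart and each pair was close, with a fold difference of 3.29 (log2 change -1.72, SE 0.45, edgeR adjusted p = 0.0651). Neurod1 had 5.89 and 8.36 CPM against 1.51 and 1.74 CPM (log2 change -2.06, SE 0.57, edgeR adjusted p = 0.0739). Both missed the threshold, and each was past it without knockout replicate 1 or 2, at adjusted p = 0.012 and 0.019 for Pax6 and 0.018 and 0.01 for Neurod1. Neither was past it without control replicate 1 or 2. Stmn2 had 722 and 455 CPM in the controls against 304 and 260 CPM, again without overlap (log2 change -0.98, SE 0.30, edgeR adjusted p = 0.104). It was -1.72 (adjusted p = 0.038) after a correction for GC content and length.

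Progenitor factors in these libraries moved unevenly. Gbx2 had 47.4 and 42.2 CPM in controls but 35.8 CPM in knockout replicate 1 and 3.08 CPM in knockout replicate 2. Sox1, an early neural plate factor, had 3.57 and 4.45 CPM against 3.84 and 0.62 CPM. In both genes the low library was knockout replicate 2, which also had the lower Ssrp1 transcript. A link between these was not tested, and the mitochondrial share also differed between knockout replicates 1 and 2 (7.31% and 2.81%). Without knockout replicate 1, Gbx2 had a log2 change of -3.83 (edgeR adjusted p = 3.3e-11) and Sox1 of -2.66 (0.009), and without knockout replicate 2 of -0.27 (0.78) and -0.01 (0.99). With all 4 libraries the changes were -1.15 (SE 0.74, adjusted p = 0.461) and -0.80 (SE 0.77, adjusted p = 0.642). Sox11, a SoxC factor of immature neurons, had 13.5 and 19.1 CPM against 7.33 and 9.46 CPM (log2 change -0.89, SE 0.42, adjusted p = 0.298). Irx3 reached 42 counts in knockout replicate 2 against 6, 13 and 7 in the other libraries (log2 change 1.28, SE 0.84).

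Nes had 7.49 and 13.65 CPM in controls against 18.4 and 17.1 CPM under the knockout label (log2 change 0.81, SE 0.42, edgeR adjusted p = 0.35). It was the single tested member whose knockout-labelled libraries were both above the controls. Tubb3 had 153 and 105 CPM against 90.6 and 81.9 CPM (log2 change -0.51, SE 0.28, adjusted p = 0.373). Krt14, on 16 and 16 counts against 9 and 11, had a log2 change of -0.70 (SE 0.68, adjusted p = 0.645). Elavl3, an RNA-binding protein of neurons, had 13.2 and 16.5 CPM against 8.08 and 23.7 CPM (log2 change 0.17, SE 0.50, adjusted p = 0.897). Map2, a dendritic microtubule protein, had 3.35 and 5.29 against 1.37 and 3.53 CPM (log2 change -0.74, SE 0.65, adjusted p = 0.602). Lhx2 had 2 and 18 counts against 1 and 12, with a wide gap within each group (log2 change -0.64, SE 1.05).

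**Figure D3:**
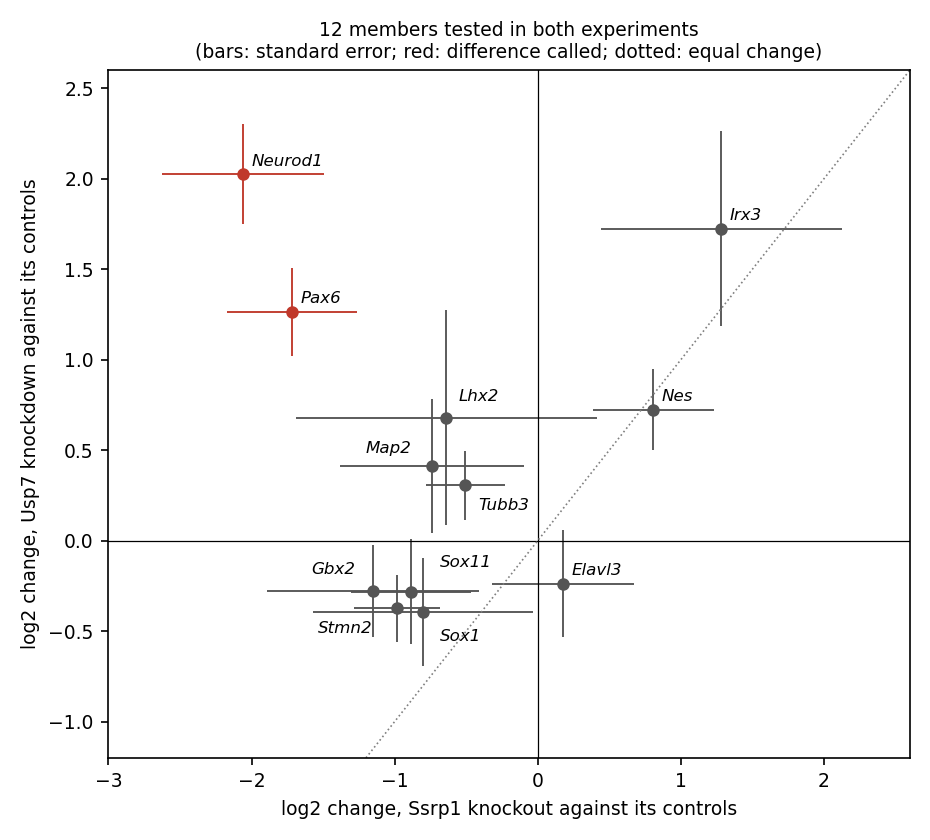
Log2 change after Usp7 knockdown (vertical axis) against log2 change in the Ssrp1 knockout-labelled libraries (horizontal axis) for the 12 members tested in both experiments, each against its own controls, with standard errors. Neurod1 and Pax6 (red) lie in the upper left, far from the dotted line of equal change, and are the members whose difference between the experiments passed the edgeR test.

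The changes of Neurod1 and Pax6 differed between the experiments. The knockout change minus the knockdown change, tested in the joint fit of the 8 libraries, was -4.13 for Neurod1 (SE 0.53, edgeR adjusted p = 0.0119) and -3.03 for Pax6 (SE 0.42, adjusted p = 0.0132). These 2 of the 16 members in that fit were the only ones called by edgeR, where 1.00% of 17052 genes were called, 0.393% lower and 0.610% higher. DESeq2 and limma-voom called the same 2 members, with 1.65% and 0.270% of all genes lower. At an unadjusted p under 0.05 there were 3, with Tubb3, against 15.1% of all genes. Neurod1 ran from 1.51 CPM in the lowest knockout library to 17.5 CPM in the highest knockdown library. Its controls had 5.89 and 8.36 CPM in the Ssrp1 experiment and 3.50 and 5.07 CPM in the Usp7 experiment. Pax6 ran from 3.75 to 19.9 CPM, with controls at 13.2 and 13.8 CPM and at 9.29 and 6.81 CPM. For both genes the Usp7 controls thus lay below the Ssrp1 controls, and this gap enters the difference of the changes. The joint edgeR fit did not call the gap (log2 difference -0.70, adjusted p = 0.235 for Neurod1, and -0.72, adjusted p = 0.142 for Pax6). Over the 14 alternatives the difference for Neurod1 ran from -4.51 to -3.88, but the call ended without Usp7 control replicate 1 (adjusted p = 0.065), knockdown replicate 1 (0.052) or knockdown replicate 2 (0.14). For Pax6 it ended without Ssrp1 control replicate 1 (0.069), Usp7 control replicate 1 (0.065) or 2 (0.063), or knockdown replicate 1 (0.079) or 2 (0.15). Tubb3 also had both knockout libraries below and both knockdown libraries above their controls, with a difference of -0.87 (SE 0.33) that did not pass the test (adjusted p = 0.249).

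Of the 12 members tested in both experiments, 6 had log2 changes of the same sign in both (50% against 56.8% of 14854 genes). In 5 of the 12 the change was below 0 in the knockout and above 0 in the knockdown, namely Pax6, Neurod1, Lhx2, Map2 and Tubb3, where 19.6% of all genes had that pattern. Nes had nearly equal changes, with a difference of 0.04 (SE 0.43).

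The controls of the experiments differed in 2 members, both lower in the Usp7 controls, where edgeR called 7.98% of genes, 4.06% lower and 3.92% higher. DESeq2 called 1 (7.36% of genes lower) and limma-voom 2 (3.61%), and 5 members had an unadjusted p under 0.05 against 26.6% of genes. Experiment, handling and control treatment cannot be told apart in this comparison. Stmn2 had 722 and 455 CPM in the Ssrp1 controls against 196 and 156 CPM in the Usp7 controls (log2 difference -1.72, SE 0.26, edgeR adjusted p = 0.0048). The libraries labelled Ssrp1 knockout, at 304 and 260 CPM, stood between these control groups. Krt14 had 16 and 16 counts against 3 and 0 (log2 difference -3.52, SE 0.96, adjusted p = 0.0472), a call that ended with DESeq2 (0.052), with the GC and length correction (0.055), and when any library of either control group (0.058 to 0.28) or of the knockdown (0.098) was left out. Stmn2 lost its call without Usp7 control replicate 2 (adjusted p = 0.067).

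**Figure D4:**
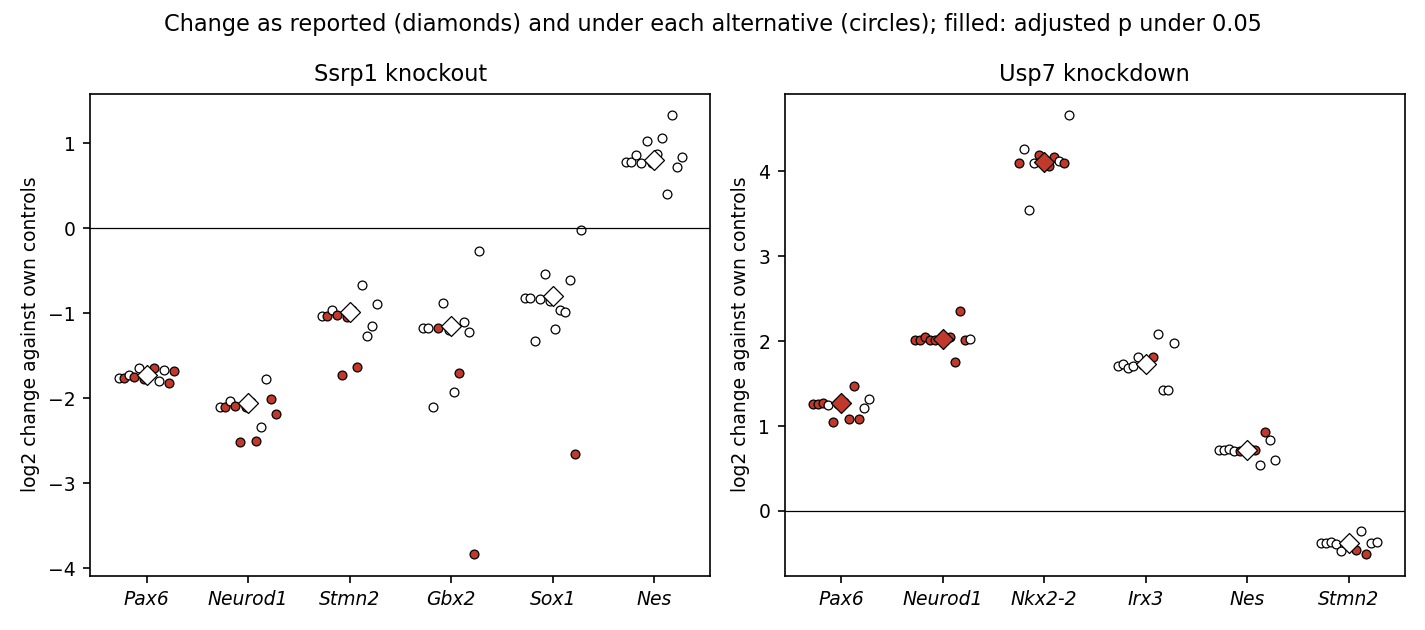
Log2 change against own controls for 6 members in each experiment, as reported (diamonds) and under each alternative processing or with a library left out (circles), filled where the adjusted p was under 0.05. Pax6 and Neurod1 keep their side of 0 in all 12 alternatives in both experiments, while Gbx2 in the Ssrp1 experiment ranges from -3.83 to -0.27.

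Further neural and ectodermal genes were followed in lists beside the 28, and their counts stand against 2.36% of all genes called higher and 0.628% lower by edgeR in the Usp7 experiment, and 3.39% and 0.324% in the Ssrp1 experiment. The list of proneural factors also holds the inhibitor genes Id1, Id2, Id3 and Id4 and the genes Tcf3, Tcf4 and Tcf12. These make up most of its tested genes, so its counts and medians do not describe proneural factors as a class. After Usp7 knockdown, 2 of 10 tested genes of this proneural list rose, Insm1 (log2 change 3.63, SE 0.72, edgeR adjusted p = 0.0224), a zinc finger gene of neuroendocrine progenitors, and Id2 (1.37, SE 0.28, adjusted p = 0.0278), an inhibitor of helix-loop-helix factors. Insm1 had 0.34 and 0.11 CPM in controls against 1.46 and 4.12 CPM after knockdown. Of 24 other progenitor factors 2 rose, Meis1 (2.28, adjusted p = 0.0242) and Irx5 (2.56, adjusted p = 0.0373), and none fell. Of 21 other neuronal genes 1 rose, the adhesion gene Nrcam (1.85, adjusted p = 0.0495). Of 16 surface ectoderm genes 2 rose, the desmosome-associated p53 target Perp (2.28, SE 0.22, adjusted p = 0.000503), from 12.6 and 11.0 to 48.9 and 62.9 CPM, and the keratin gene Krt7 (2.56, adjusted p = 0.037). Krt7 and Tfap2c of this list are also among the trophoblast markers summed above. The calls of Insm1, Id2, Meis1, Irx5, Nrcam and Krt7 ended without knockdown replicate 2 (adjusted p from 0.41 to 0.82), and that of Perp did not. Without control replicate 1 those of Id2, Irx5, Nrcam and Krt7 ended too (0.056 to 0.077), and Krt7 also without knockdown replicate 1 (0.11). Insm1, Irx5 and Krt7 passed the filter through the knockdown libraries only, so they too could enter only as higher. Without the genes of that kind 1 of 9, 1 of 22, 1 of 20 and 1 of 15 were called higher in these 4 lists, with medians of 0.89, 0.59, -0.26 and -0.05. The 1 of 9 in the proneural list was Id2. With limma-voom the calls of Insm1 (0.055), Irx5 (0.056), Nrcam (0.076) and Krt7 (0.052) were lost. DESeq2 called 4 genes of the proneural list, 2 progenitor factors, 2 neuronal genes and 1 surface ectoderm gene higher, against 3.07% of all genes. In the Ssrp1 knockout-labelled libraries, the progenitor factors Lmx1a (3.60, adjusted p = 0.0173) and Meis2 (4.02, adjusted p = 0.0371) rose among 17 tested. The neuronal genes Stmn3 (-1.90, adjusted p = 0.0348) and the neurofilament-like Ina (-1.85, adjusted p = 0.0498) fell among 20, and the keratin gene Krt17 (fold 4.01, adjusted p = 0.0433) fell among 16. Of 10 tested genes of the proneural list 0 were called by edgeR, DESeq2 or limma-voom and 0 had an unadjusted p under 0.05. Medians were 0.36, -0.48, 0.22 and 0.13 for progenitor factors, neuronal genes, surface ectoderm and the proneural list. Of the 17 progenitor factors, Hesx1 passed the filter through the knockout-labelled libraries only, and without it the median was 0.35. DESeq2 called 6 neuronal genes, 1 progenitor factor and 1 surface ectoderm gene lower (1.37% of all genes) and 2 progenitor factors higher (5.81%). Limma-voom kept Lmx1a, Stmn3 and Ina, but not Meis2 (0.1) or Krt17 (0.059). None of these 5 calls held without Ssrp1 control replicate 1 (adjusted p from 0.18 to 0.57) or without control replicate 2 (0.065 to 0.13). The difference between the experiments was called for Perp (-2.83, adjusted p = 0.029) and Ina (-2.68, adjusted p = 0.043), and was lost for both without Ssrp1 control replicate 1 or any 1 library of the Usp7 experiment (0.11 to 0.25), for Ina also without Ssrp1 control replicate 2 (0.055).

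Lists of Notch pathway and REST complex genes, which hold neural genes back in progenitors and in cells outside the nervous system, had no member called by edgeR in either experiment. Of 25 tested Notch genes, 7 had an unadjusted p under 0.05 in the Usp7 experiment (16.7% of all genes did) and DESeq2 called 2 higher, with limma-voom calling 0. In the Ssrp1 experiment 4 of 24 had one, against 18.2% of all genes, and DESeq2 called 1 higher and 1 lower (5.81% and 1.37% of all genes), with limma-voom calling 0. Of 14 REST complex genes, 2 had an unadjusted p under 0.05 in each experiment, and DESeq2 called 1 lower in the Ssrp1 experiment and 0 in the Usp7 experiment, with limma-voom calling 0 in both. Rest itself had 301 and 346 CPM in the Usp7 controls against 336 and 303 CPM after knockdown (log2 change 0.00, SE 0.20). In the Ssrp1 experiment it had 146 and 267 against 314 and 190 CPM. Glial and neural crest lists had no member called by edgeR in either experiment. In the Ssrp1 experiment their median log2 changes were -0.40 and 1.26 against 0.03 over all genes, with 3 of 7 and 8 of 9 above 0. Without genes that passed the filter through the knockout-labelled libraries only, 2 of 6 and 7 of 8 were above 0, with medians of -0.40 and 1.26. In the Usp7 experiment the medians were 0.24 and 0.39 against -0.02 over all genes. Of 8 and 9 tested genes, 1 and 2 had an unadjusted p under 0.05 in the Usp7 experiment (16.7% of all genes), with 0 called by DESeq2 or limma-voom. Of 7 and 9, 2 and 4 did in the Ssrp1 experiment (18.2% of all genes), where DESeq2 called 1 neural crest gene higher and limma-voom 0. The 2 include Ptprz1 and the 4 include Snai2, which passed the filter through the knockout-labelled libraries only. Both could enter only by being higher there, so these counts are biased upwards.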

How the data were processed

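Per the submitters' processing notes, the authors handled reads with cutadapt, HISAT2 and featureCounts on mm10. They deposited raw counts per Ensembl gene in 2 tables. Tool versions, annotation release, strand mode and the treatment of reads with several hits were not given in the sources used here, so overlapping and antisense genes may share reads. The 92 spike-in rows were all at 0 and were left out. Symbols, coordinates and exon lengths came from GENCODE M21 (GRCm38, the assembly of mm10), in which 67 genes had no symbol. Upstream sequences came from RefSeq.

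The 4 libraries of an experiment were fitted alone (edgeR 4.0.16, R 4.3.3, filterByExpr defaults, TMM factors, quasi-likelihood F test). P-values were Benjamini-Hochberg adjusted across the genes tested, with calls made below 0.05. The difference between the experiments and the control comparison came from a joint fit of 8 libraries. Standard errors were derived from the log2 change and the F statistic. DESeq2 1.42.0, limma-voom (limma 3.58.1), other scaling, no filter, the replicate number as a block, a spline correction for GC content and length and leaving out each library served as alternatives. The steps were tested on simulated data. The members and lists were chosen with earlier results of these data known. All 28 members are accounted for: those past a filter are named with their values, and the others with their highest count. Of each further list at most 3 called genes per comparison were named.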

Additional observations from a re-analysis of the deposited data

Results flagged for a closer look

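The change of Pax6 differed between the experiments: the log2 change in the Ssrp1 knockout-labelled libraries minus that in the Usp7 knockdown was -3.03 (edgeR joint fit, adjusted p = 0.0132). For Neurod1 the same difference was -4.13 (adjusted p = 0.0119). For Tubb3 every library labelled knockout lay below its controls and every knockdown library above its own, with a difference of -0.865 that did not pass the test (adjusted p = 0.249). These genes were singled out because the experiments moved apart in them. No group had enough libraries to look for a single outlying one.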

How the results depend on the processing

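Members called lower in the Ssrp1 experiment numbered 0, but 3 with DESeq2 or the joint fit, 2 after GC and length correction, 2 with the replicate block, 4 with that block and the correction and 4 without the filter; leaving out a library gave 0 to 4. Members higher after Usp7 knockdown numbered 3, but 1 without the filter or in the joint fit, 5 with the replicate block alone or with the correction, and 0 to 5 with a library left out; lower ones numbered 1 with block and correction and 0 to 2 with a library left out. The difference between the experiments kept 0 to 3 members called lower with a library left out. In the control comparison 1 was lower with DESeq2 or the correction; leaving out a library gave 0 to 2 lower and 0 to 1 higher. The cause was not tested. Members called as reported kept their direction. After Usp7 knockdown Gbx2 and Map2, not called as reported, crossed 0 without control replicate 1 (0.06 and -0.03) and were called without control replicate 2 (adjusted p = 0.026 and 0.022). In a count chosen after seeing the data, 2 members were higher without those that passed the filter through the knockdown alone.

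Over all genes, 534 were higher and 51 lower in the Ssrp1 experiment, against 898 and 211 with DESeq2, 1238 and 259 without the filter, 1042 and 272 in the joint fit, 844 and 144 with the block, 228 and 52 with the correction, 880 and 582 with both, and 16 and 4, 300 and 58, 1150 and 362, and 1464 and 420 without control replicate 1, control replicate 2, knockout replicate 1 and knockout replicate 2. Usp7 knockdown gave 376 and 100, against 95 and 5 without the filter, 74 and 4 in the joint fit, 964 and 507 with the block, 574 and 276 with the correction, 1049 and 795 with both, 489 and 208 with DESeq2, 385 and 239 without control replicate 1, 2032 and 1738 without control replicate 2, 283 and 51 without knockdown replicate 1 and 41 and 1 without knockdown replicate 2. The difference between the experiments had 104 genes higher and 67 lower. It had 637 and 308 without the filter, 320 and 205 with the block and 70 and 78 with the correction. In the control comparison 669 were higher and 692 lower in the Usp7 controls, against 1071 and 1206 with DESeq2 and 561 and 705 with the correction. With a library left out, the all-gene counts of both comparisons rose or fell, depending on the library. Libraries with the same replicate number deviated together only weakly (correlations 0.184 and 0.146 over genes), and with 2 pairs an experiment they share only a number. With 2 libraries a group, leaving 1 out assumes that the lone library varies like the other group.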
